A study of Mus musculus with 28 samples.

Results

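Transcripts of 10 genes of the choroid plexus were followed through 28 RNA-seq libraries of mouse brain. The genes were *Ttr*, *Folr1*, *Otx2*, *Clic6*, *Sostdc1*, *Kcnj13*, *Slc4a5*, *Kcne2*, *Aqp1* and *Kl*. They were chosen because they are known for this tissue and with the difference between knockout and wild-type dorsal striatum already known. The values of that comparison are therefore given as a description and support nothing. Each symbol matched 1 Ensembl identifier, so the set holds 10 of the 29878 genes counted.

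The choroid plexus is a fold of vascular connective tissue inside the brain ventricles, covered by a secretory epithelium. Its epithelial cells make the cerebrospinal fluid and move ions, water, vitamins and hormones between blood and fluid. The dorsal striatum borders the lateral ventricle and the hypothalamus borders the third. The sources do not say how near choroid plexus tissue lay to any of the dissections. The motor cortex does not border a ventricle directly.

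Dorsal striatum, ventral striatum, hypothalamus and motor cortex were dissected from adult male mice, 2 to 3 months old, on a C57Bl/6 background. The mice were wild type (WT), heterozygous (het) or homozygous knockout (KO) for *Hdc*, which encodes histidine decarboxylase, the enzyme that makes histamine. The allele is carried in every cell from conception, and no drug or other treatment is named. The dorsal striatum gave 7 libraries (2 WT, 3 het and 2 KO) and the ventral striatum 8 (3 WT, 3 het and 2 KO). The hypothalamus also gave 8 (3 WT, 3 het and 2 KO), and the motor cortex 5 (1 WT, 2 het and 2 KO). A library name joins a digit from 1 to 8 and a letter for the region, which is b for dorsal striatum, a for ventral striatum, f for hypothalamus and d for motor cortex. The sources used here do not say that a digit is a mouse, so p-values measure the spread between these samples, which may be technical in part.

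Between 3536802 and 5150280 reads per library were counted on genes. Levels are given as CPM, the count of a gene scaled to a common library total by the TMM method, where 1 CPM was about 4 reads, and intervals on counts cover counting error only. *Hdc* itself had 0 to 6 counts in the 6 libraries labelled WT outside the hypothalamus, 17 to 33 in the 8 labelled het and 29 to 51 in the 6 labelled KO. In the hypothalamus it had 79 to 111 counts in libraries labelled WT, 78 to 117 in those labelled het and 54 to 66 in those labelled KO. *Hdc* counts were thus higher, not lower, in the libraries labelled KO outside the hypothalamus. The sources do not place the altered part of the gene, so a count over the whole gene does not check the knockout, and genotypes below are those of the labels. The regions carried their own markers. *Rgs9*, a regulator of G protein signalling enriched in striatum, was at 67.96 CPM or more in both striata and at most 19.35 CPM elsewhere, and *Drd1*, the D1 dopamine receptor, at 59.9 CPM or more against at most 8.16 CPM. Hypothalamic genes (*Hcrt*, *Pmch*, *Avp* and *Trh*) summed to 149 CPM or more in the hypothalamus and to at most 6.44 CPM elsewhere. *Slc17a7*, the vesicular glutamate transporter of cortical neurons, was at 1040 CPM or more in motor cortex, and outside it was highest in KO dorsal striatum 7b (178.5 CPM against 1.84 to 56.4 in the other 6) and KO hypothalamus 8f (197.6 CPM against 10.2 to 44.8 in the other 7).

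The choroid plexus genes were low in most dissections and high in a single one, dorsal striatum 8b, a library labelled KO. The 10 genes together made 2887 CPM in 8b, against 3.60 to 67.8 CPM in the other 6 dorsal striatum libraries. They made 17.2 to 84.9 CPM in ventral striatum, 11.9 to 24.7 CPM in hypothalamus and 4.56 to 30.8 CPM in motor cortex. Without *Ttr* the other 9 genes made 183.8 CPM in 8b and 2.64 to 23.8 CPM in the other 27 libraries. Knockout library 7b, the other KO dorsal striatum, was at 7.82 CPM and so lay among the WT and het libraries.

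**Figure D1:**
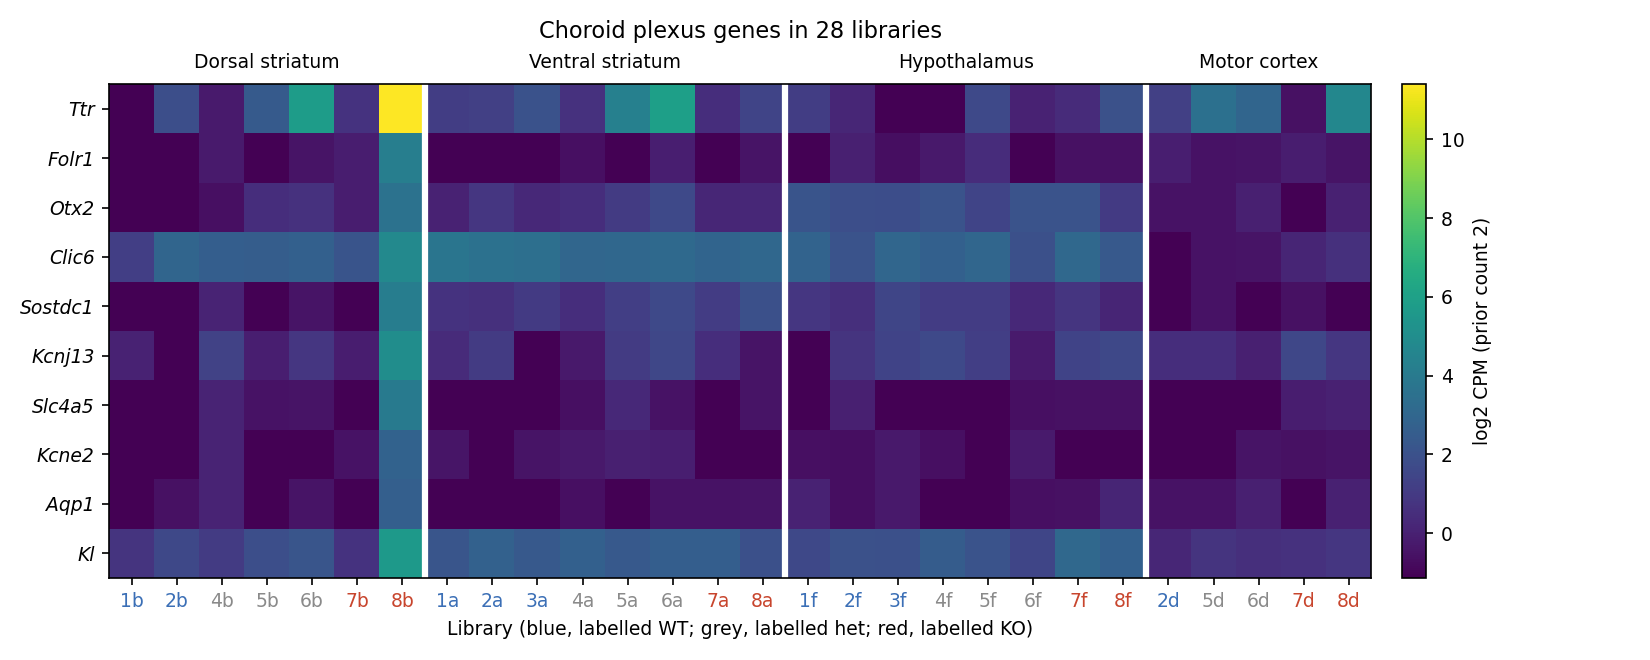
Log2 CPM (prior count 2) of the 10 choroid plexus genes, one row per gene, in the 28 libraries, one column per library, ordered by region and genotype label. In dorsal striatum 8b each of the 10 genes is at its highest level, with *Ttr* at 10311 counts, while *Clic6* and *Kl* are also seen in the other striatal and hypothalamic libraries.

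*Ttr* encodes transthyretin, the carrier of thyroxine and retinol-binding protein that the epithelium secretes into the fluid, and it is the most abundant of these transcripts in the tissue. It had 0 and 14 counts in the WT dorsal striatum libraries, 2, 20 and 199 in the het libraries, 5 in KO 7b and 10311 in KO 8b. The KO libraries therefore did not form a group of their own, since 7b lay between the WT libraries. In ventral striatum *Ttr* had 6, 7 and 14 counts in WT, 6, 74 and 258 in het, and 4 and 9 in KO. The 2 high values there were het libraries 5a and 6a. In hypothalamus it had 9, 4 and 0 counts in WT, 0, 14 and 3 in het, and 4 and 16 in KO. In motor cortex it had 8 counts in WT, 45 and 28 in het, and 1 and 92 in KO. Of all *Ttr* reads in the series, 92.45% came from 8b.

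A group of members forms the ion and water transport machinery of the epithelium. *Kcnj13*, which encodes the inward rectifier potassium channel Kir7.1 of the apical membrane, had 2 and 0 counts in WT dorsal striatum, 10, 2 and 5 in het, and 2 and 123 in KO. *Kcne2*, an accessory subunit of potassium channels, had 0 and 0 counts in WT, 3, 0 and 0 in het, and 1 and 25 in KO. *Slc4a5*, an electrogenic sodium bicarbonate cotransporter, had 0 and 0 counts in WT, 3, 1 and 1 in het, and 0 and 58 in KO. These 3 genes were at 10 counts or fewer in every dorsal striatum library but 8b. *Aqp1*, the apical water channel, had 0 and 1 counts in WT, 3, 0 and 1 in het, and 0 and 22 in KO. *Clic6*, a member of the chloride intracellular channel family, had 6 and 32 counts in WT, 28, 22 and 22 in het, and 17 and 101 in KO. *Clic6* was thus the member with the most reads outside 8b in the dorsal striatum apart from *Ttr*.

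The other members act in uptake and signalling. *Folr1*, the folate receptor that brings folate into the fluid, had 0 and 0 counts in WT dorsal striatum, 2, 0 and 1 in het, and 2 and 69 in KO. *Kl*, which encodes klotho, a membrane and secreted coreceptor for FGF23, had 4 and 11 counts in WT, 8, 13 and 15 in het, and 5 and 191 in KO. *Sostdc1*, a secreted antagonist of BMP and Wnt signals, had 0 and 0 counts in WT, 3, 0 and 1 in het, and 0 and 68 in KO. *Otx2*, a homeobox transcription factor needed for the formation and upkeep of the choroid plexus, had 0 and 0 counts in WT, 1, 4 and 4 in het, and 2 and 44 in KO. In each of the 10 genes 8b was the highest of the 7 dorsal striatum libraries, and the count in 7b lay within the range of the WT and het libraries. Of all reads of a gene in the series, 8b held 73.42% for *Slc4a5*, 70.41% for *Folr1* and 53.19% for *Kcne2*, but 19.13% for *Otx2* and 12.98% for *Clic6*.

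*Otx2* protein is known to bind a core of the letters TAATC, and promoters were searched for these letters on both strands (GATTA on the other). RefSeq starts on GRCm38.p6 were at hand for 6 of the 10 genes, with 10 starts in all, and the 250 bases before each start were read. The letters were found before 3 of the 10 starts, and in 19.8% of 32851 mouse promoters of the same length, so nothing is read from the count in the members. The 3 windows are shown because they hold a match, *Otx2* being the factor itself and the other 2 being potassium channel genes. Capitals mark the match, each line runs 5′ to 3′ on the strand of the gene, and the last base lies directly before the start. The *Otx2* window is chr14:48665110-48665359 (minus strand, match starting at base -210), the *Kcnj13* window chr1:87394730-87394979 (minus strand, match at -226) and the *Kcne2* window chr16:92292139-92292388 (plus strand, match at -32). A match is a description of the letters and not a bound site.
Otx2, start 3: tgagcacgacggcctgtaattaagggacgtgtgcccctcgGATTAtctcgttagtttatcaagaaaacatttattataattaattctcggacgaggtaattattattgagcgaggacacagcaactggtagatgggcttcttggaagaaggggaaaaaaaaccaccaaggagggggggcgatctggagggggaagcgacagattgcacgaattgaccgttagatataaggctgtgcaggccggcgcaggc
Kcnj13: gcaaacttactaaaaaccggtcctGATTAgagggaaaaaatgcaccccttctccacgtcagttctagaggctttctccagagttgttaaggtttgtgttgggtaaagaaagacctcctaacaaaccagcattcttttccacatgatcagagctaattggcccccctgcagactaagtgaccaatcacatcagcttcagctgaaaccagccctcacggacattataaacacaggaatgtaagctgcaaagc
Kcne2, start 1: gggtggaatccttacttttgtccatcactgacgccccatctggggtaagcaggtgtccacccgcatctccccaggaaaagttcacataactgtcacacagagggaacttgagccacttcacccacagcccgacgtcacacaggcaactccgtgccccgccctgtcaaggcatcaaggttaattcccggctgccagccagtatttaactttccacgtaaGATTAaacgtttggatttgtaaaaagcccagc

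Per length, *Ttr* stood far above the other members in 8b. On the scale of CPM per kilobase of exon its level was 2280, followed by *Kcnj13* at 25.4, *Sostdc1* at 10.01, *Folr1* at 7.88, *Clic6* at 6.77 and *Kl* at 5.37. *Kcne2* was at 3.71, *Otx2* at 2.73, *Slc4a5* at 2.62 and *Aqp1* at 2.196 on the same scale. In the hypothalamus the order was another one, with mean levels of 1.53 for *Clic6*, 1.27 for *Kcnj13*, 1.05 for *Ttr*, 0.756 for *Sostdc1*, 0.740 for *Otx2* and 0.464 for *Kl* CPM per kilobase. *Folr1* (0.132), *Aqp1* (0.103), *Kcne2* (0.0918) and *Slc4a5* (0.0246) were lowest there.

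The genes lie on several chromosomes of GRCm38. *Clic6* (92485736 to 92541243) and *Kcne2* (92292389 to 92298129) both lie on the plus strand of chromosome 16. *Aqp1* (55336432 to 55348555) and *Slc4a5* (83219828 to 83304945) are both on chromosome 6. *Ttr* spans 20665280 to 20674321 on chromosome 18, *Folr1* 101858331 to 101870788 on chromosome 7 and *Otx2* 48657677 to 48673819 on chromosome 14. *Sostdc1* spans 36314139 to 36318452 on chromosome 12, *Kcnj13* 87386363 to 87394729 on chromosome 1 and *Kl* 150952607 to 150993817 on chromosome 5. *Kcnj13* overlaps *Gigyf2* on the opposite strand, which had 63.3 to 97.4 CPM in the 28 libraries. *Folr1* overlaps *Anapc15* on the opposite strand (2.04 to 6.44 CPM) and *Otx2* overlaps *Otx2os1* (0 to 0.262 CPM). The sources do not say whether counting used strand, so reads of these pairs cannot be told apart, and the low *Kcnj13* counts outside 8b are uncertain for that reason.

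The other 9 genes had reads of their own in libraries with few *Ttr* reads. In 8b they summed to 701 counts against 10311 of *Ttr*. At that ratio the 199 *Ttr* counts of het dorsal striatum 6b would come with 13.5 counts of the others, and 50 were seen (95% Poisson interval 37.1 to 65.9). The 258 *Ttr* counts of het ventral striatum 6a would come with 17.5, and 97 were seen (78.7 to 118). In the 8 hypothalamus libraries the ratio gives at most 1.09 counts of the others, and 58 to 110 were seen. Most reads of the 9 genes outside 8b were of *Clic6*, *Kl* and *Otx2*. The 9 genes had 12 to 61 counts in the 5 dorsal striatum libraries other than 6b and 8b, and 64 to 89 in the 6 ventral striatum libraries other than 5a and 6a. With such counts present, an addition of the size that the ratio gives could not be told apart in 6b or 6a. In CPM the 9 genes were at 13.6 in 6b, against 3.60 to 12.4 in the 5 dorsal striatum libraries other than 6b and 8b. They were highest in 6a of the 8 ventral striatum libraries (23.2 against 16.2 to 21.3 in the 6). Library 6a had 11 counts of *Otx2*, 10 of *Kcnj13* and 2 of *Folr1*, each the highest count of its gene in that region. *Kcne2* (2) and *Aqp1* (1) were level with other libraries at the top. *Clic6* (35 against up to 45), *Kl* (24 against up to 32), *Sostdc1* (11 against up to 13) and *Slc4a5* (1 against up to 3) were not highest in 6a. The share of all genes highest in 6a was not counted. *Ttr* made 93.6% of the reads of the 10 genes in 8b, 79.9% in 6b, 72.7% in 6a, 50.7% in 5a and 80.7% in KO motor cortex 8d, and 0 to 17.2% in the hypothalamus.

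**Figure D2:**
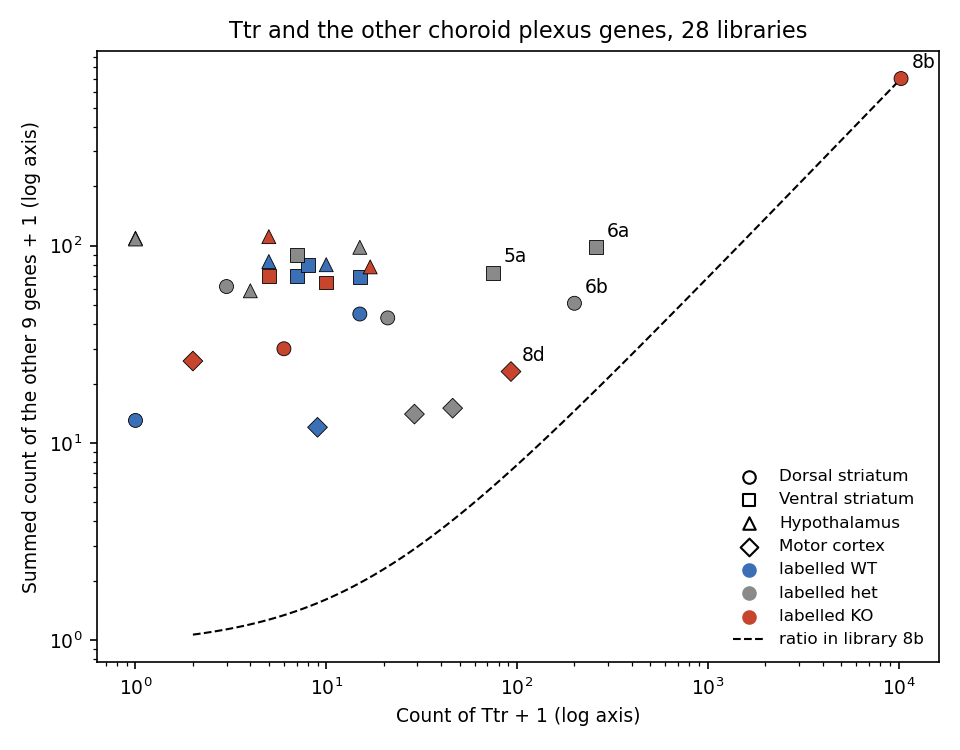
Count of *Ttr* (x axis, log scale, plus 1) against the summed count of the other 9 choroid plexus genes (y axis, log scale, plus 1) in the 28 libraries, with regions as symbols and genotype labels as colours. The dashed line is the ratio in 8b (701 to 10311); the other 27 libraries lie above it, those of hypothalamus at 58 to 110 counts of the 9 genes with at most 16 of *Ttr*.

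By a simple rule of size, a gene counted as raised in a library when its CPM was over 4 times the median of the other libraries of that region, with a floor of 3 counts. In 8b this held for 10 of the 10 members and for 55 of 22396 genes, 0.246% of those with a read in the dorsal striatum. Since the members were chosen with this library in view, nothing is read from their count. Their folds ran from 4.78 for *Clic6* through 24.3 for *Kl* to 1251 for *Ttr*. For the other 7 the median of the other libraries was under the floor, so 8b was at least 41.0-fold higher for *Kcnj13*, at least 23.0-fold for *Folr1* and at least 7.33-fold for *Aqp1*. *Clic6* lay just inside the threshold. In the other libraries at most 1 member was raised. That was *Ttr*, in 6b, 5a, 6a, 8f and 8d, where the background was 0.0179%, 0.00456%, 0.0137%, 0.158% and 0.00983% of genes. No member was raised in the other 22 libraries, where 0.0382% of genes were.

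Further genes known for the choroid plexus were also high in 8b, from a list of 40 that leaves out the members. Of these, 16 were over 4-fold and 34 were above each of the other 6 dorsal striatum libraries, where 17.4% of all genes were. For the 36 genes with 8b or the median of the others above the floor, the median fold was 2.87, against 0.986 for the 13863 such genes in all. *Enpp2*, which encodes autotaxin, a secreted phospholipase of the epithelium and of oligodendrocytes, was at 990 CPM in 8b and at 107 to 184 CPM in the other 6. *Trpm3*, a cation channel, was at 105.9 against 32.9 to 57.4 CPM. *Vat1l* was just above the others (250.4 against 159 to 244 CPM), and *Atp11a* lay among them (76.0 against 57.7 to 82.9 CPM). Of the 55 raised genes, 10 were members, 16 were on this list and 29 were on neither. The list was written with earlier results of these libraries known, and the same tissue is named by both lists, so it is no independent evidence.

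Markers of other cell types were, with few exceptions, under 4-fold in 8b. Ependymal cells line the ventricle wall beside the choroid plexus. Of 10 ependymal genes 1, *Ak7*, was over 4-fold in 8b. The 10 genes summed to 17.3 CPM in 8b, below the 38.9 CPM of het 4b but above the 4.66 to 7.19 CPM of the rest. In het 4b, 4 ependymal genes and 0.313% of all genes were over 4-fold while the choroid plexus members summed to 12.8 CPM. *Foxj1*, the master factor of motile cilia, was at 2.62 CPM in 8b. The other 6 libraries had a *Foxj1* median of 1.17 CPM and a highest value of 7.33 CPM. Of 10 fibroblast and 10 endothelial genes, 0 were over 4-fold in 8b. The fibroblast sum was 68.7 CPM against 53.9 to 63.1, and the endothelial sum 357.9 against 307 to 354. Most of the fibroblast sum was *Pdgfra*, which oligodendrocyte precursors express too, at 40.1 CPM in 8b against 28.5 to 36.5. *Dcn*, *Col1a1* and *Col1a2* of that list lay among the other libraries, so the sum is no clear measure of fibroblasts. Of 10 oligodendrocyte genes 0 were over 4-fold, but 8 were above each of the other 6 libraries, where 3 fibroblast genes and 1 endothelial gene were. Of its myelin genes, *Mal* was at 371 CPM in 8b and at 184.6 to 355.4 CPM in the other 6, *Cnp* at 285.8 against 158.8 to 248.5 CPM, and *Mobp* at 263.8 against 134.1 to 243.8 CPM. Whether the choroid plexus reads and the oligodendrocyte reads of 8b share a source was not tested. In bulk tissue fewer cells of a type and less RNA per cell cannot be told apart.

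**Figure D3:**
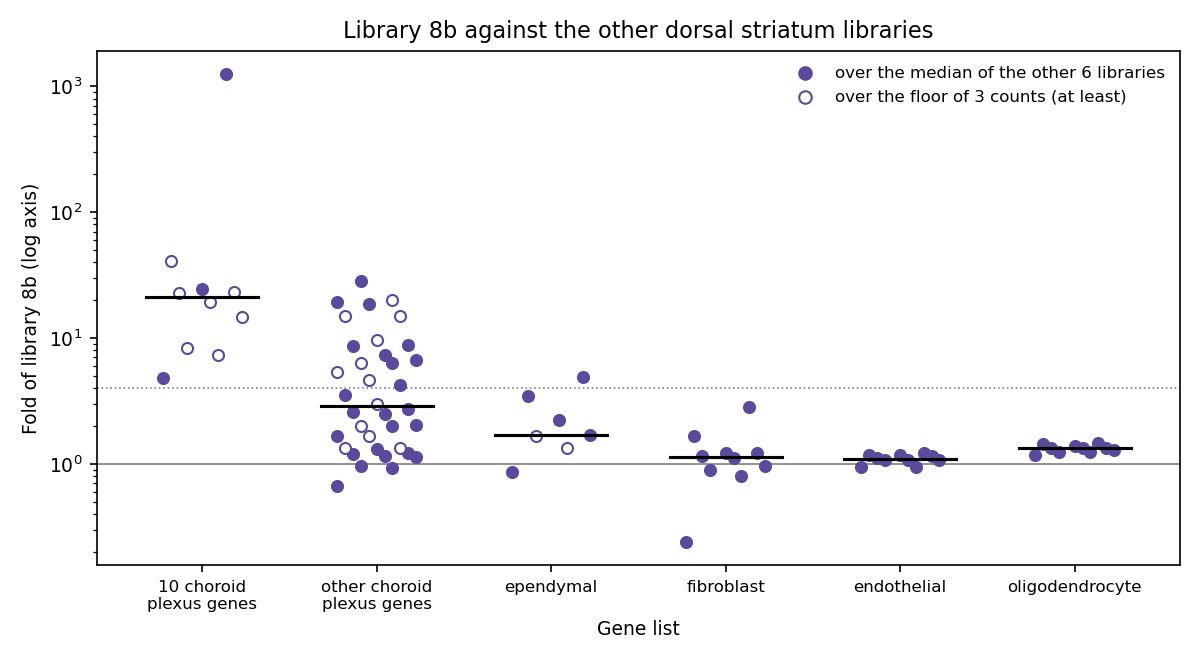
Fold of dorsal striatum 8b over the median of the other 6 dorsal striatum libraries (y axis, log scale), one point per gene, for the 10 choroid plexus genes and 5 other lists, with open points where the floor of 3 counts stands in for the median and a bar at each list's median. The choroid plexus medians are 21.0 and 2.87, and the ependymal, fibroblast, endothelial and oligodendrocyte medians are 1.70, 1.13, 1.10 and 1.33.

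Among the genes outside the set, the 10 whose log2 CPM was most like the mean log2 CPM of the members over the 28 libraries were *Mfrp* (Pearson r = 0.865), *F5* (0.830), *1500015O10Rik* (0.794), *Enpp2* (0.784), *Tmem72* (0.778), *Calml4* (0.726), *Abca4* (0.720), *Tuba1c* (0.704), *Drc7* (0.667) and *Cpt1a* (0.650). Of these, 7 were on the list of other choroid plexus genes. Over the 27 libraries without 8b each r was lower. It fell least for *Calml4* (to 0.611, at a median of 0.19 CPM in those libraries) and *Cpt1a* (to 0.514). It was 0.523 for *F5*, 0.461 for *Drc7*, 0.451 for *Mfrp* and 0.408 for both *1500015O10Rik* and *Abca4*. The likeness of *Tmem72* (0.286), *Tuba1c* (0.094) and *Enpp2* (0.086) rested on 8b. Over the 45 pairs of members the median r of log2 CPM was 0.560 with all 28 libraries and 0.078 without 8b, and 29 pairs were above 0.5 with it and 6 without. All points share depth and the scaling of their library, and low counts limit each r.

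The comparison of KO with WT dorsal striatum is the one with which the genes were chosen, and its values turned on 1 library. Of the 10 genes, 7 passed the filter of 1 CPM in at least 2 libraries, which used the count over the library total without TMM scaling. *Slc4a5*, *Kcne2* and *Aqp1* were above it in 8b alone. *Folr1* lay just inside, through 8b and the 5 counts of het hypothalamus 5f, which were 0.930 CPM after TMM scaling. In edgeR's likelihood ratio test over 14979 genes, 6 of the 7 were called higher in KO, where 0.354% of all genes were called higher and 0.387% in either direction. In the same comparison 3 of 10 oligodendrocyte genes were called higher, with a median log2 difference of 0.73 beside -0.004 over all genes, and their part in the values of the members was not tested. Log2 KO over WT was 9.69 (SE 1.69) for *Ttr*, with an adjusted p of 0.0253 in edgeR, and 3.74 (SE 0.78) for *Kl*, with 0.00396. For *Clic6* it was 1.69 (SE 0.55) with an adjusted p of 0.184. *Kcnj13* had 2 counts in WT, and its ratio of KO to WT was 59.4 (exact 95% interval of the counts 16.1 to 496). Where both WT libraries were at 0, KO was at least 11.2-fold higher for *Folr1*, 10.8-fold for *Sostdc1*, 9.18-fold for *Slc4a5*, 7.28-fold for *Otx2* and 4.12-fold for *Kcne2*, with 3 counts per WT library as the floor. *Aqp1* had 1 count in WT and a ratio of 20.9 (3.38 to 862). Without 8b, 0 of the 7 were called (2 at an unadjusted p under 0.05) and log2 KO over WT was -0.48 for *Ttr*, -0.73 for *Kl* and -0.28 for *Clic6*. Without KO 7b, 7 were called. Without WT 1b or without WT 2b, 0 were called, and 6 and 7 of them had an unadjusted p under 0.05. The quasi-likelihood test of edgeR called 1 and the Wald test of DESeq2 5.

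**Figure D4:**
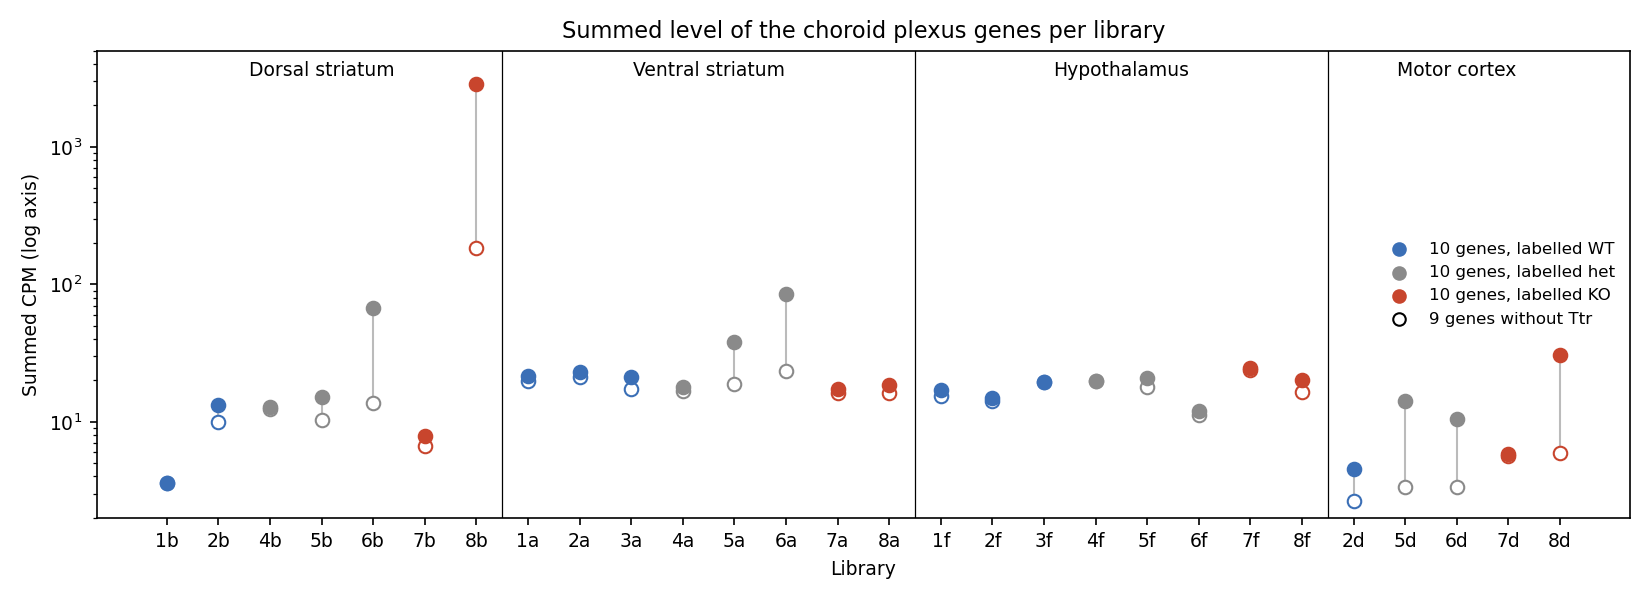
Summed CPM (y axis, log scale) of the 10 choroid plexus genes (filled) and of the 9 without *Ttr* (open) in each of the 28 libraries, coloured by genotype label and grouped by region. KO library 8b is at 2887 CPM, KO library 7b at 7.82 CPM, and the gap between the points, which is *Ttr*, is also wide in het 6b, 5a, 6a, 5d and 6d and in KO 8d.

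The genotype comparisons outside the dorsal striatum compared other libraries than those that chose the genes, but the spread of each gene was estimated over all 28 libraries, 8b included. In ventral striatum 0 of the 7 tested members were called between KO and WT by edgeR's likelihood ratio test, where 0.0801% of genes were (0 members had an unadjusted p under 0.05, and DESeq2 called 0). Between het and WT 0 were called, beside 0.0534% of genes, and between KO and het 0, beside 0.0467%, with 1 member under an unadjusted p of 0.05 in each. That member was *Ttr*, higher in 2 of the 3 het libraries. Its log2 het over WT was 3.50 (SE 1.37, edgeR adjusted p = 1), and its log2 KO over het -4.07 (SE 1.55, edgeR adjusted p = 1). When the model held only the WT and het libraries of ventral striatum, the het over WT value was 3.47 and passed, with an edgeR adjusted p of 0.00803, against 0.869 to 1 under the other settings. *Clic6* was at 10.3, 11.03 and 12.97 CPM in WT ventral striatum, 7.58, 7.85 and 8.38 in het and 7.09 and 7.84 in KO. The WT libraries were the highest there, but the share of all genes that separate in this way was not counted. Log2 KO over WT for *Clic6* was -0.61 (SE 0.49) and did not pass, with an edgeR adjusted p of 0.945. Fibroblast markers were high in 1 of the KO libraries there, and 2 of 10 were called higher in KO than in WT beside 0.0601% of all genes. Their sum was 188.6 CPM in KO 8a, 70.8 in KO 7a and 65.4 to 91.6 in the WT and het libraries, and their part in the values of the members was not tested.

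In hypothalamus 0 of the 7 were called in each comparison, beside 0.167% of genes for KO and WT, 0.0935% for het and WT and 0.234% for KO and het. None of these 3 comparisons had a member with an unadjusted p under 0.05 in edgeR, and DESeq2 called 0. *Kl* was at 2.52, 3.40 and 3.44 CPM in WT, 2.34, 3.72 and 5.18 in het, and 6.01 and 8.01 in KO. Both KO libraries were above the other 6, 8f being the one with the most *Slc17a7* of its region. The share of all genes with such an order was not counted. Log2 KO over WT for *Kl* was 1.16 (SE 0.67) and did not pass, with an edgeR adjusted p of 0.872. In motor cortex, with 1 WT library, KO was compared with het, and 0 of the 7 were called beside 0.00668% of genes. The difference of the KO effect between hypothalamus and ventral striatum was tested as an interaction, and 0 of the 7 were called beside 0.1% of genes. A p that misses the threshold does not show equal levels, since the SE of log2 KO over WT ranged up to 1.58 in hypothalamus.

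Between regions a large share of all genes was called, so the calls of members are given as a description. The share was 43.6% for hypothalamus over ventral striatum, 48.2% for hypothalamus over motor cortex and 43.6% for ventral striatum over motor cortex. Each genotype was weighted equally. *Otx2* was at 3.13 ± 0.84 CPM (SD, n = 8) in hypothalamus, 1.16 ± 0.68 (n = 8) in ventral striatum and 0.307 ± 0.22 (n = 5) in motor cortex. Its counts were 7 to 20 in hypothalamus, 2 to 11 in ventral striatum and 0 to 2 in motor cortex. Motor cortex and ventral striatum thus met at 2 counts, while in CPM they did not overlap (at most 0.540 against at least 0.576). The share of all genes without overlap was not counted. Log2 hypothalamus over ventral striatum was 1.52 (SE 0.46), with an edgeR adjusted p of 0.00202. It was the 1 member of 7 called in that comparison, where 43.6% of genes were called. Log2 hypothalamus over motor cortex was 3.30 (SE 0.78) for *Otx2* (edgeR adjusted p = 2.25e-06), and log2 ventral striatum over motor cortex 1.78 (SE 0.81, edgeR adjusted p = 0.0306). The last call was lost with DESeq2 (adjusted p = 0.0642), with the quasi-likelihood test of edgeR (0.113), and without het 5d, het 6a, KO 7d or WT 2a (edgeR adjusted p of 0.0704, 0.0569, 0.11 and 0.0588).

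*Clic6* was the member that most clearly set motor cortex apart. It was at 9.12 ± 2.07 CPM (SD, n = 8) in ventral striatum, 5.98 ± 1.83 (n = 8) in hypothalamus, 5.01 ± 1.90 (n = 6) in dorsal striatum without 8b and 0.450 ± 0.43 (n = 5) in motor cortex. Its 0 to 4 counts in motor cortex did not overlap the 6 to 101 counts of the other libraries, but the share of all genes that separate in this way was not counted. The edgeR adjusted p was 1.36e-14 for hypothalamus and 1.98e-18 for ventral striatum against motor cortex, and no fold is given since the WT motor cortex library was at 0. *Kl* was at 5.04 ± 1.04 CPM (n = 8) in ventral striatum, 4.33 ± 1.94 (n = 8) in hypothalamus, 2.29 ± 1.18 (n = 6) in dorsal striatum without 8b and 1.09 ± 0.24 (n = 5) in motor cortex. Log2 over motor cortex was 2.28 (SE 0.55) for ventral striatum and 2.09 (SE 0.55) for hypothalamus, with edgeR adjusted p of 0.000109 and 0.000336. *Sostdc1* was at 1.77 ± 0.82 CPM (n = 8) in ventral striatum, 1.35 ± 0.55 (n = 8) in hypothalamus, 0.147 ± 0.25 (n = 6) in dorsal striatum without 8b and 0.0930 ± 0.13 (n = 5) in motor cortex. Its 3 to 13 counts in ventral striatum and hypothalamus did not overlap the 0 or 1 counts of motor cortex (edgeR adjusted p = 4.93e-05 and 0.000338). Here too the share of all genes without overlap was not counted. *Kcnj13* had 1.62 ± 0.99 CPM in hypothalamus, 1.25 ± 0.74 in motor cortex and 1.00 ± 0.81 in ventral striatum, and its neighbours in this order did not pass the test.

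**Figure D5:**
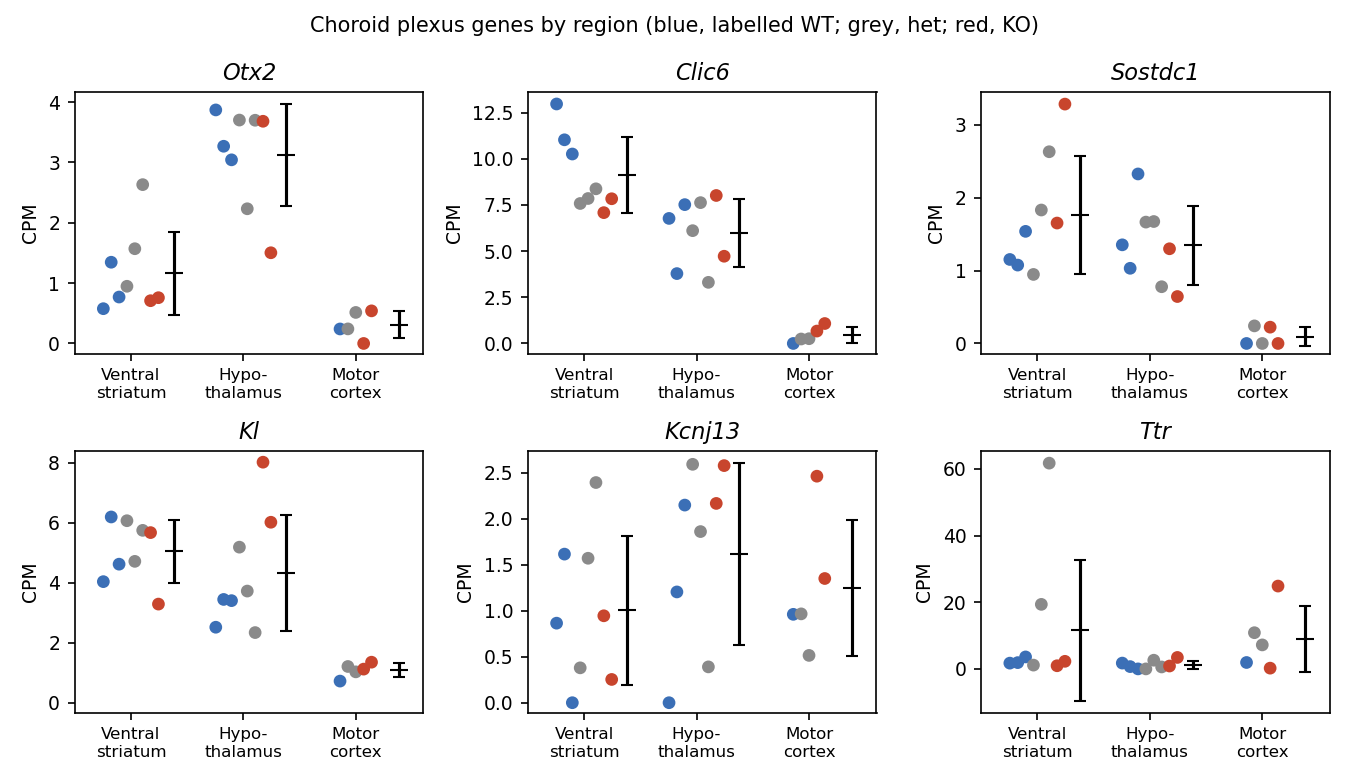
CPM of 6 choroid plexus genes (y axes) in ventral striatum, hypothalamus and motor cortex, one point per library coloured by genotype label, with mean and SD over all libraries of a region beside the points. *Clic6*, *Kl* and *Sostdc1* are low in motor cortex, *Otx2* is highest in hypothalamus, and *Ttr* is spread by single libraries, up to 61.7 CPM in ventral striatum and 24.9 CPM in motor cortex.

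In total 5 of the 7 were called between hypothalamus and motor cortex, where 48.2% of genes were called, and 4 between ventral striatum and motor cortex, where 43.6% were. With 7 genes tested, nothing is read from these counts. The fifth call of hypothalamus over motor cortex was *Ttr*, which was lower in hypothalamus. Its log2 difference was -2.27 (SE 1.01) with an edgeR adjusted p of 0.0436. Without KO motor cortex 8d it was -0.42 with 0.813, and it also failed without any of 4f, 6f, 5d, 6d, 7f, 2f or 3f (adjusted p of 0.0522 to 0.124). The call was lost too with the quasi-likelihood test of edgeR (adjusted p = 0.453), DESeq2 (0.163), library size alone as the scaling (edgeR adjusted p = 0.0571) and the replicate block (edgeR adjusted p = 0.2). For *Ttr*, ventral striatum over motor cortex did not pass the test (log2 -0.34, SE 1.00, edgeR adjusted p = 0.817). Ventral striatum over hypothalamus missed the threshold for *Ttr* (log2 hypothalamus over ventral striatum -1.93, SE 0.87, edgeR adjusted p = 0.0669). The order of mean *Ttr* levels was 11.6 ± 21.2 CPM (SD, n = 8) in ventral striatum, 10.6 ± 21.4 (n = 6) in dorsal striatum without 8b, 9.01 ± 9.81 (n = 5) in motor cortex and 1.24 ± 1.25 (n = 8) in hypothalamus. In each of the 4 regions the SD was larger than the mean.

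The 4 remaining genes were scarce in every region outside 8b. *Folr1* averaged 0.115 CPM in ventral striatum, 0.303 in hypothalamus, 0.339 in motor cortex and 0.190 in dorsal striatum without 8b, with at most 5 counts in a library. *Slc4a5* had at most 3 counts in any of the other 27 libraries and 0 in 14 of them. *Kcne2* and *Aqp1* also had at most 3 counts in any of them, with 0 in 12 and in 10. *Folr1* passed the test in none of the region comparisons, and the other 3 were too low to be tested, so no difference between regions was detectable for them at this depth.

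Ependymal genes were higher in hypothalamus than in the other 2 regions tested. Between hypothalamus and motor cortex 10 of 10 ependymal genes were called higher in hypothalamus, beside 25.4% of all genes, and between hypothalamus and ventral striatum 8 of 10, beside 23.9%, with a median log2 difference of 2.32 beside 0.03 over all genes. Their sum was 21.2 to 39.6 CPM in hypothalamus and 9.21 to 12.1 CPM in ventral striatum. Of the other choroid plexus genes 33 of 40 were tested, and 15 were called higher and 5 lower in hypothalamus than in ventral striatum (19.7% of all genes were lower), with a median log2 difference of 0.36. *Enpp2* averaged 171 CPM in ventral striatum, 185.4 in hypothalamus and 209.7 in motor cortex. Among the members, the scarce *Folr1* and *Aqp1* had the same order of means, while *Clic6*, *Kl*, *Sostdc1* and *Otx2* were lowest in motor cortex.

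The het libraries of the dorsal striatum took no part in the comparison that chose the genes. Their members were compared with het ventral striatum and het hypothalamus (n = 3 each). Against ventral striatum 0 of the 7 were called, where 14.4% of genes were. *Ttr* was at 0.407, 4.90 and 54.2 CPM in het dorsal striatum and at 1.14, 19.4 and 61.7 CPM in het ventral striatum, and log2 dorsal over ventral was -0.47 (SE 1.34, edgeR adjusted p = 0.891). The highest library was the one of digit 6 in both regions, and digit 6 was at 0.584 CPM in hypothalamus. Against hypothalamus 2 of the 7 were called, where 41.2% of genes were. *Ttr* was higher in dorsal striatum by 4.18 (SE 1.38) on the log2 scale, with an edgeR adjusted p of 0.0185. That call rested on 6b, since without it the value was 1.29 (edgeR adjusted p = 0.521), and it was also lost without het 4f (3.61, 0.0884) or het 6f (3.90, 0.0738) and with DESeq2 (adjusted p = 0.0608). Log2 dorsal striatum over hypothalamus was -2.09 (SE 0.76) for *Otx2*, with an edgeR adjusted p of 0.0121, and at 0.0993 without het 4b.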

How the data were processed

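Counts were analysed for 28 single-end RNA-seq libraries of 4 brain regions and 3 *Hdc* genotypes. The authors trimmed reads with Trimmomatic 0.32, removed rRNA reads with Bowtie2 2.2.3, aligned the rest to GRCm38 (Ensembl annotation 75) with STAR 2.3.1z8, handled files with SAMtools 0.1.19 and deposited raw counts per gene from HTSeq 0.6.1p1, with versions per the labels. cDNA was amplified from 5 ng of RNA, so reads are not independent molecules. Totals per library were 3536802 to 5150280 counts on genes, 44.8% to 54.2% of the reads tallied. A row that names no gene held 0 counts. Symbols came from GENCODE M21 on the same build, which named 28758 of 29878 genes, and promoter sequences from RefSeq on GRCm38.p6.

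The 14979 genes that exceeded 1 CPM (count over library total, before TMM) in 2 or more libraries were fitted in edgeR 4.0.16 (R 4.3.3) with TMM scaling, a mean for each of 12 groups, and glmFit with glmLRT, the functions of the study's methods. A Benjamini-Hochberg adjusted p under 0.05 over all genes was a call. Log2 CPM used a prior count of 2. The code was tested on simulated counts. Alternatives were edgeR's quasi-likelihood test, DESeq2 1.42.0, other scaling, no filter, fewer libraries, a replicate block and leaving out each library. The named genes were the 10 members, up to 4 genes of highest mean CPM per list, the 10 genes most like the members, and the region markers, of which some are not reported here. The other genes named were the overlapping genes, *Hdc* and *Foxj1*. The members and lists were chosen with earlier results of these data known.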

Additional observations from a re-analysis of the deposited data

Results flagged for a closer look

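Dorsal striatum 8b stood apart from the other 6 libraries of its region by more than Dixon's 95% limit for 8 of the 10 genes. Its log2 CPM was 4.21 for *Folr1* (nearest library -0.13), 3.58 for *Otx2* (0.63), 4.19 for *Sostdc1* (0.09) and 5.03 for *Kcnj13* (1.32). It was 3.97 for *Slc4a5* (0.09), 2.81 for *Kcne2* (0.09), 2.64 for *Aqp1* (0.09) and 5.66 for *Kl* (2.18). The mean over the 10 genes was 4.82 in 8b and 0.91 in the nearest library. The genes were chosen with this library in view, so these values describe that choice and are no test of 8b. *Ttr* and *Clic6* did not pass the limit in 8b. In ventral striatum, het library 5a stood apart for *Slc4a5* at a log2 CPM of 0.31 (nearest -0.50), which is 3 counts. Altogether 44 groups of values were tested, and chance passes about 1 group in 20 where the values did not choose the genes.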

How the results depend on the processing

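Of the counts of members called, 82 stayed within 1.5 times the reported count under other settings and 8 moved. Leaving out 1 library, 93 stayed and 9 moved. Several comparisons had 0 called, where a count has little room to move. Of the log2 differences, 151 held, 15 weakened, 5 strengthened and 1 reversed under other settings. With 1 library left out, 182 held, 32 weakened, 4 strengthened and 6 reversed. Of the summed or mean levels, 38 held and 46 moved under other settings. Between KO and WT dorsal striatum (6 called) leaving out 1 library gave 0 to 7, and the quasi-likelihood test 1. Over the same libraries left out, log2 KO over WT ranged from -0.48 to 15.54 for *Ttr*, -0.28 to 3.05 for *Clic6* and -0.73 to 4.68 for *Kl*, the lowest without KO 8b. The highest for *Ttr* was set against WT 1b at 0 counts and is no bound. Between hypothalamus and ventral striatum (1 called) there were 2 without the low-count filter, 3 with only the libraries compared in the model and 1 to 2 without 1 library. For het dorsal striatum over het hypothalamus (2 called) the quasi-likelihood test gave 1, DESeq2 1, and leaving out 1 library 1 to 2. With only the libraries compared, het over WT ventral striatum gave 1 and het dorsal over ventral striatum 2, where 0 were called. Leaving out 1 library, log2 *Ttr* ranged from -0.81 to 1.54 (without KO 8d) for ventral striatum over motor cortex, and from -3.36 to 0.95 (without het 6a) for het dorsal over ventral striatum, where it was 0.11 without het 4b. Causes were not tested. Scaling by library size alone moved the split of all genes to 496 higher and 0 lower for KO over WT dorsal striatum, from 53 and 5, and to 6215 and 1610 for hypothalamus over ventral striatum, from 3583 and 2950. For hypothalamus over motor cortex it was 6116 and 2100, from 3798 and 3427. For het dorsal striatum it was 689 and 1575 over ventral striatum, from 1137 and 1018, and 1707 and 5557 over hypothalamus, from 2879 and 3288. The median of all genes moved to 0.28, 0.24, 0.28, -0.14 and -0.33 log2.

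Over all tested genes, libraries of the same digit did not deviate together from their group means (34 pairs, mean r 0.007, highest 0.086). In groups of 2 libraries these deviations are mirror images of each other, so such an r cannot decide whether a digit marks a mouse. With the digit as a replicate block, 2 members were called for hypothalamus over ventral striatum, and log2 *Ttr* for ventral striatum over motor cortex turned to 0.72. No paired analysis was possible for the genotype comparisons because WT, het and KO share no digit. No fit was made without the only WT motor cortex library for comparisons that need it. Low counts outside 8b limit *Folr1* (at most 5 in a library) and *Slc4a5*, *Kcne2* and *Aqp1* (at most 3).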
